A study of Mus musculus with 12 samples.

Results

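The axon guidance ligands and receptors were followed in sorted epithelial cells of the mouse gallbladder and small intestine. They comprise 68 of the 43432 genes in the deposited count table and were picked out by gene symbol: 20 semaphorins, 9 plexins, 2 neuropilins, 8 ephrins, 14 Eph receptors, 3 Slits, 4 Robos, 3 netrins, 4 Unc5 receptors and Dcc. A further symbol of the same families, Ntn3, was not analysed here. The study sorted live EpCAM+ cells, that is epithelial cells, from Flare25 mice, in which a red fluorescent protein reports transcription of the cytokine IL-25, a product of tuft cells in the gut epithelium. All 4 groups came from such reporter mice and had 3 libraries each: IL-25+ (SI-pos) and IL-25- (SI-neg) cells of the proximal small intestine, and IL-25+ (GB-pos) and IL-25- (GB-neg) cells of the gallbladder. The gallbladder libraries carry a further label, HDM AF647 given to the mice 1 day before collection, while the protocol text of the same libraries speaks of homeostasis; the intestinal libraries carry no such label. Differences between the tissues therefore cannot be told apart from that treatment. The labels give no age, sex or animal number, so p-values measure the spread between these libraries, which may be technical. The IL-25- fraction is a mixture of all other epithelial cells of a tissue.

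Axon guidance molecules steer growing nerve fibres and also act between epithelial cells. Semaphorins signal through plexins, with neuropilins as co-receptors for the secreted class; ephrins and Eph receptors are both held in the membrane and signal in both directions at cell contacts, where they are known for keeping crypt and villus cells apart in the intestine. Slits are secreted ligands of Robo receptors, and netrins bind Dcc and the Unc5 receptors. Tuft cells are chemosensory cells that express many genes otherwise found in neurons.

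Library totals ran from 23703449 to 64736650 counts, with GB-neg 1 the deepest. Levels are given in CPM, read counts scaled by TMM to a common library size, and CPM per kilobase of exon where genes are compared with each other. The 15 listed tuft cell markers were all higher in the IL-25+ cells of both tissues, with sums of 25568 to 45053 CPM there and 55.8 to 301.7 CPM in the IL-25- cells. GB-neg 1 stood apart: its 12 enterocyte markers summed to 917 CPM against 19.8 to 41.6 CPM in the other 5 gallbladder libraries, and its enteroendocrine markers to 420.2 CPM against 5.1 to 32.0. Of the endothelial markers, which matter because many guidance genes are also vascular, Cdh5, Emcn and Cldn5 had 0 counts in every group. The endothelial sum of 286 to 397 CPM in GB-pos was mostly Tek, at a mean of 307 CPM. Esam and Tie1 were also higher there, at means of 24.7 and 13.0 CPM against 8.01 and 0.0187 in GB-neg. Of the 6 endothelial markers tested, 2 were called higher and 0 lower in IL-25+ cells of each tissue. The 10 markers of neurons and glia summed to 1.20 to 2.07 CPM in SI-pos, 60.6 to 140.3 in SI-neg, 8.05 to 41.4 in GB-pos and 33.2 to 44.5 in GB-neg, and the SI-neg sum was mostly Snap25 at a mean of 90.2 CPM. The 10 stroma and smooth muscle markers summed to at most 8.59 CPM in any library.

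Of the 68 genes, 56 had enough reads to be tested. Sema3g, Epha8 and Unc5d had 0 counts in all 12 libraries, which allows up to 3 counts in each. Sema4f, Plxnb3, Epha6, Epha10, Ephb1, Robo3, Robo4, Ntn5 and Dcc, the main attractive netrin receptor, had 1 to 97 counts over all libraries together, with a highest group mean of 1.17 CPM. The endothelial Robo4 was among these, with 2 counts in all.

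The tested guidance genes called between the gates went in both directions in each tissue. In the small intestine 12 of 56 were higher and 13 lower in IL-25+ than in IL-25- cells (edgeR quasi-likelihood test, Benjamini-Hochberg adjusted p under 0.05 over 16636 genes), which is 44.6% against 27.2% of all genes tested (14.5% higher, 12.8% lower). In the gallbladder 16 were higher and 14 lower, 53.6% against 26.8% of all genes (12.4% higher, 14.4% lower). A gene passed the read filter through the group in which it was high, so these shares describe the 56 and not the families as a whole. The median log2 fold change of the 56 was -0.39 in the small intestine and -0.46 in the gallbladder, against -0.07 and -0.15 over all genes. In bulk libraries of this kind fewer cells that use a gene and less RNA per cell cannot be told apart.

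Some genes differed in the same direction in both tissues and others in opposite directions. Plxna4, Sema3b, Sema4a, Sema5b, Sema6c, Sema7a and Unc5b were higher in IL-25+ cells of both, and Epha1, Nrp1, Plxna1, Sema3c, Sema4d and Slit2 were lower in both. Epha7, Nrp2 and Sema5a were lower in intestinal and higher in gallbladder IL-25+ cells. The share of all genes with each of these joint patterns was not counted. These lists therefore do not show whether such patterns are more frequent among guidance genes. The interaction of tissue and gate, that is the gallbladder difference minus the intestinal one, was called for 15 of 56 genes, 6 with a positive and 9 with a negative value, or 26.8% against 9.23% of all genes (3.63% positive, 5.6% negative). With RLE scaling 7 were positive and 7 negative.

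**Figure D1:**
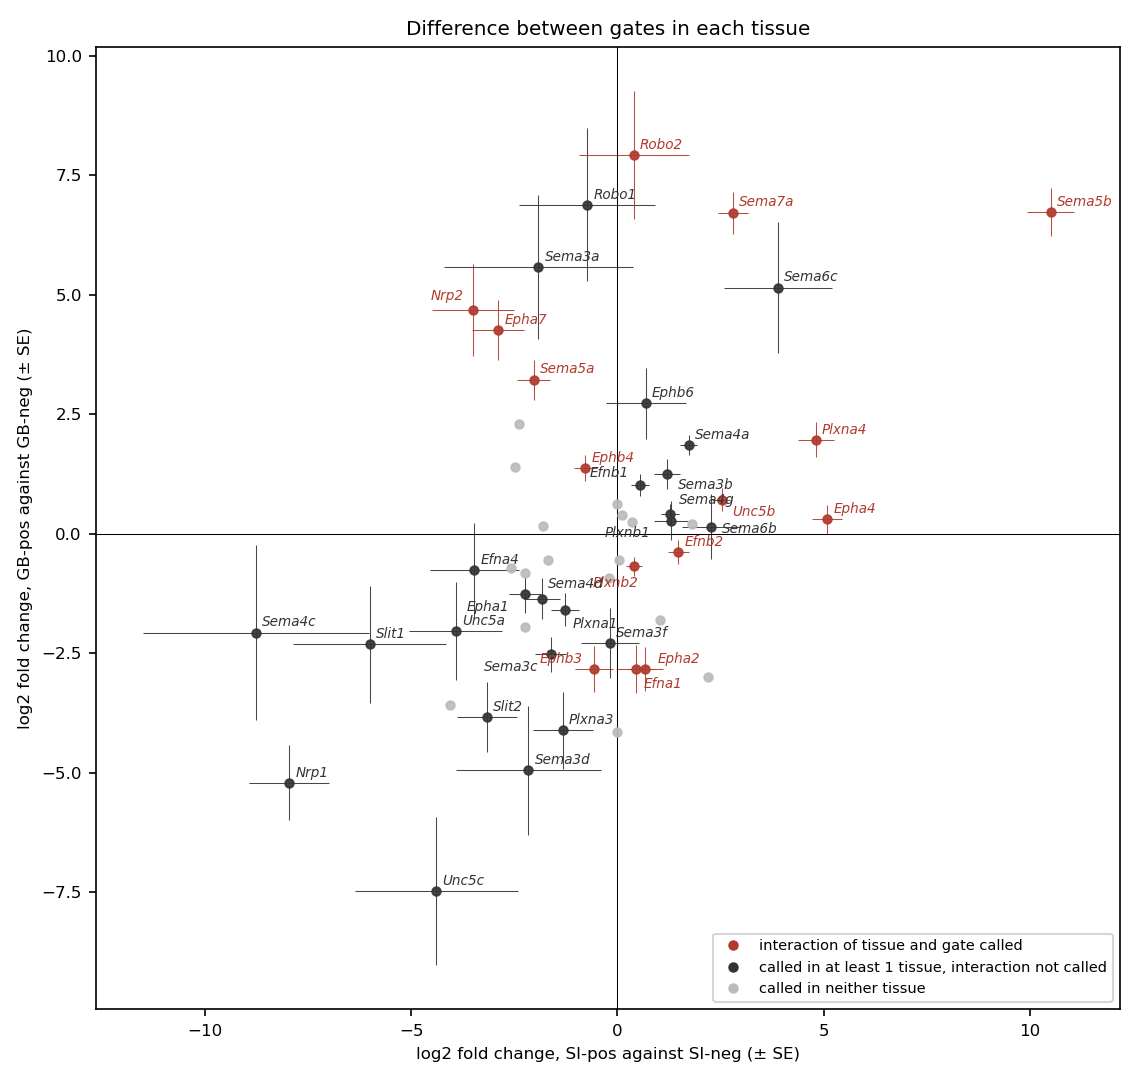
Difference between the gates for each of the 56 tested genes: the x axis is the log2 fold change of SI-pos against SI-neg, the y axis that of GB-pos against GB-neg, and the bars are standard errors. Red points are the 15 genes with a called interaction; Epha7, Nrp2 and Sema5a lie at the upper left, lower in the intestine and higher in the gallbladder; grey points, called in neither tissue, are drawn without bars.

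**Figure D2:**
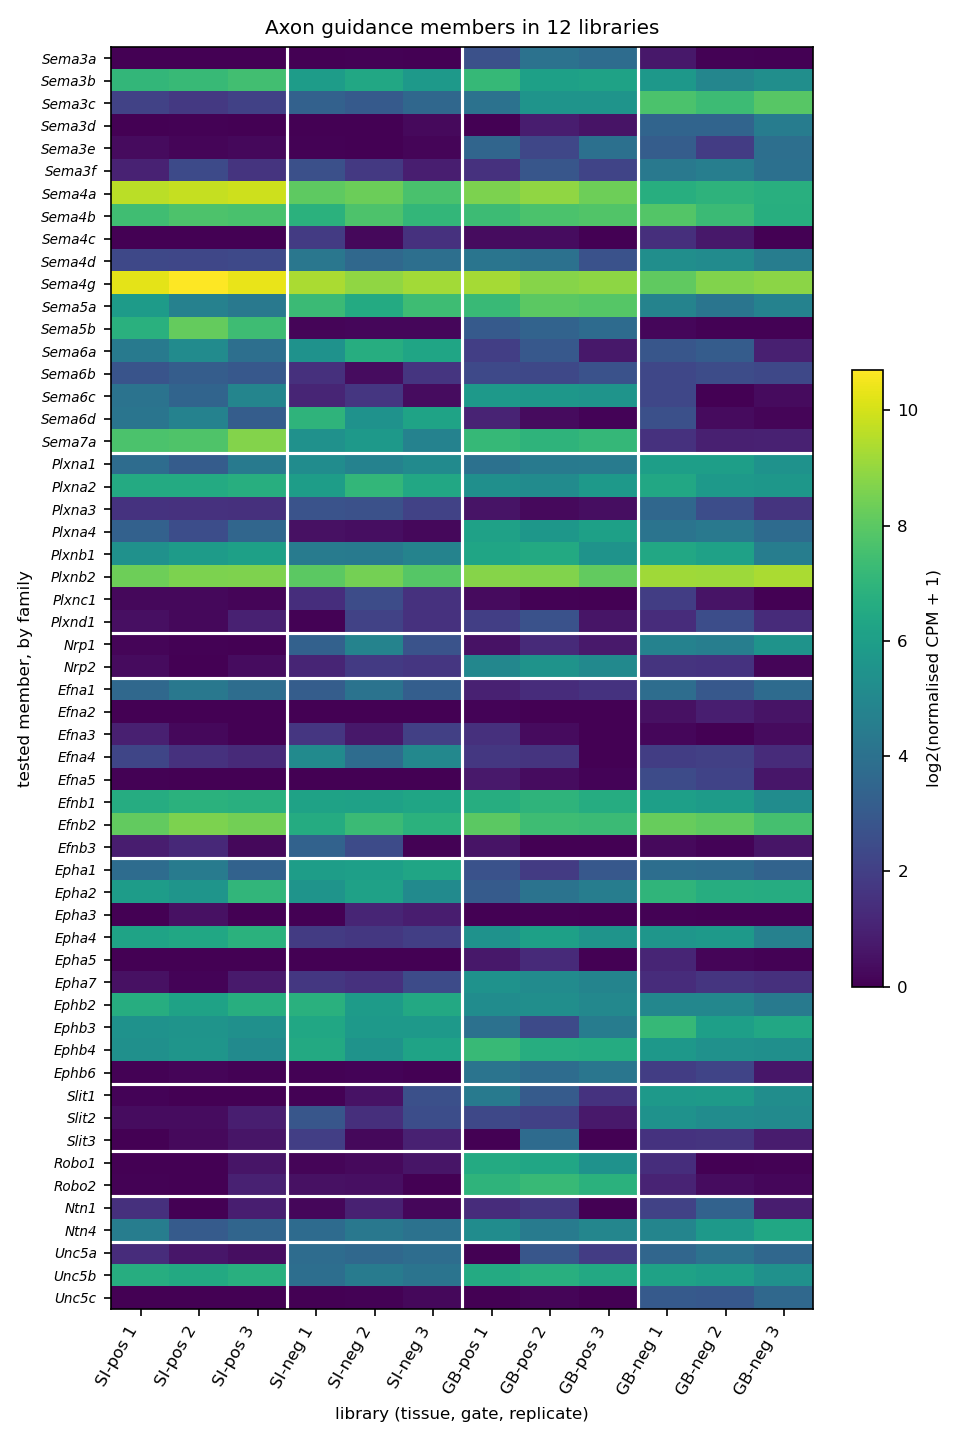
Level of each tested gene in the 12 libraries, as log2(normalised CPM + 1), ordered by family. Robo1, Robo2, Epha7 and Nrp2 are highest in the 3 GB-pos libraries, and Sema5b in the 3 SI-pos libraries.

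Among the semaphorins, 18 of 20 were tested; 7 were higher and 4 lower in IL-25+ cells in each tissue, 38.9% and 22.2% of those tested against 14.5% and 12.8% of all genes in the small intestine and 12.4% and 14.4% in the gallbladder. Per kilobase, Sema4g and Sema4a had the highest levels of all the guidance genes in 3 of the groups, with means of 163 and 158 CPM per kilobase in SI-pos, 67.1 and 47.8 in SI-neg and 58.5 and 73.6 in GB-pos. In GB-neg the plexin Plxnb2 was highest, at 77.3.

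Sema5b, a transmembrane semaphorin with thrombospondin repeats (chromosome 16, 35541145 to 35664732, + strand, GRCm38), was high in IL-25+ cells of the small intestine and near 0 in the IL-25- cells of both tissues. It measured 109, 289 and 165 CPM in SI-pos 1 to 3, 0.119, 0.133 and 0.127 in SI-neg, 7.23, 9.76 and 12.5 in GB-pos and 0.14, 0.0591 and 0.0325 in GB-neg. The IL-25+ libraries were above the IL-25- libraries in both tissues with no overlap, and IL-25- cells of both tissues stayed at or below 0.14 CPM. The log2 fold change (± SE) between gates was 10.50 ± 0.56 (adjusted p = 6.20e-08) in the small intestine and 6.73 ± 0.51 (adjusted p = 1.24e-06) in the gallbladder. Without GB-neg 1 the gallbladder counts differed 213-fold (95% counting interval 72.8 to 1037, 3 counts left in GB-neg). The interaction of -3.77 ± 0.74 (adjusted p = 0.00604) did not hold without GB-neg 1 (adjusted p 0.135, 0.00051 to 0.357 over its 21 alternatives), with limma-voom or without GB-neg 1 and SI-neg 3 together. Between the tissues, gallbladder IL-25+ cells were lower than intestinal ones (-4.26 ± 0.41, adjusted p = 1.40e-05).

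Sema7a, a membrane-anchored semaphorin that binds Plxnc1 and integrins (chromosome 9, 57940112 to 57962865, + strand), was also higher in IL-25+ cells of both tissues. Its levels were 206, 216 and 421 CPM in SI-pos 1 to 3, 42.1, 53.6 and 25.8 in SI-neg, 142, 122 and 141 in GB-pos and 1.85, 0.945 and 0.974 in GB-neg. No gates overlapped, and the step was steeper in the gallbladder, where IL-25- cells had at most 1.85 CPM while intestinal IL-25- cells had 25.8 to 53.6. Its gate difference was 2.79 ± 0.36 (adjusted p = 9.15e-05) in the small intestine and 6.71 ± 0.44 (adjusted p = 3.38e-07) in the gallbladder, and the interaction was 3.92 ± 0.50 (adjusted p = 0.000376). Its receptor Plxnc1 had 508 counts in all 12 libraries and no call.

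Sema4a, a transmembrane semaphorin known from immune cells (chromosome 3, 88435959 to 88461182, - strand), was abundant in every group and again higher in IL-25+ cells. Its levels were 766, 858 and 944 CPM in SI-pos 1 to 3, 266, 311 and 199 in SI-neg, 386, 482 and 325 in GB-pos and 103, 120.1 and 107 in GB-neg. No groups overlapped between gates within a tissue or between tissues within a gate. The difference was 1.73 ± 0.20 (adjusted p = 4.56e-05) on the log2 scale in the small intestine and 1.85 ± 0.20 (adjusted p = 2.60e-05) in the gallbladder, with an interaction of 0.12 ± 0.28 (adjusted p = 0.853). Both gates were lower in the gallbladder than in the intestine, IL-25+ cells (-1.11 ± 0.20, adjusted p = 0.00156) and IL-25- cells (-1.23 ± 0.20, adjusted p = 0.000743).

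Sema7a and Sema4a are 2 of the 7 genes higher in IL-25+ cells of both tissues. Others of the 7, such as Sema5b, Sema6c and Unc5b, also have upstream sequences, which are not shown. The upstream sequences of Sema7a and Sema4a are given as examples. Each is the 250 bases before a RefSeq start (GRCm38.p6), 5′ to 3′ on the gene's strand, at chr9:57939862-57940111 (+) for Sema7a and at chr3:88461183-88461432 (-) for the most upstream of 4 Sema4a starts; capitals mark CG dinucleotides, a marking chosen after the motif search below.
Sema7a: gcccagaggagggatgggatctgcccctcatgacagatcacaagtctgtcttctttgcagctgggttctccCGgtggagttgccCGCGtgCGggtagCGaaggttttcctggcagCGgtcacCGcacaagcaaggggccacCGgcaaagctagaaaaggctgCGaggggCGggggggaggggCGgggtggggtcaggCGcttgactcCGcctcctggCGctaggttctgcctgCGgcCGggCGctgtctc
Sema4a: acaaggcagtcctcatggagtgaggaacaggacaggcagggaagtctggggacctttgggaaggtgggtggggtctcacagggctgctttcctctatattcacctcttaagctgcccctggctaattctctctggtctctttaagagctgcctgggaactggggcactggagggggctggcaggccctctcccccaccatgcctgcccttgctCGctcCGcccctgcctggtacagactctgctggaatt
The Sema7a window held 17 CG dinucleotides and 66.4% G or C, and the Sema4a window 2 and 59.6%, against medians of 6 and 52.4% over 32851 windows of that length. The other Sema4a windows held 3, 13 and 6 CG dinucleotides and 58%, 64% and 56.4% G or C. The letters ATGCAAA, part of the octamer bound by POU factors such as the tuft cell factor Pou2f3, were searched on both strands. They were in 0 of the 74 windows of the 58 guidance genes that have one, and in 1355 of 32851 windows overall (4.12%).

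Sema4g, a transmembrane semaphorin (chromosome 19, 44989101 to 45003397, + strand), measured 1245, 1672 and 1318 CPM in SI-pos 1 to 3, 658, 493 and 593 in SI-neg, 611, 431 and 478 in GB-pos and 276, 408 and 462 in GB-neg. The SI-pos libraries were the highest, clear of all others, while the gallbladder gates overlapped. The gate difference was 1.28 ± 0.22 (adjusted p = 0.000937) in the small intestine and 0.41 ± 0.22 (adjusted p = 0.191) in the gallbladder, and IL-25+ cells of the gallbladder were lower than those of the intestine (-1.48 ± 0.22, adjusted p = 0.000443). The interaction was not called (-0.87 ± 0.31, adjusted p = 0.1).

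Sema5a, the close relative of Sema5b (chromosome 15, 32244810 to 32696341, + strand), had the opposite gate difference in the 2 tissues. It measured 58.2, 24.9 and 19.3 CPM in SI-pos 1 to 3, 159, 91.4 and 167 in SI-neg, 154, 259.6 and 238 in GB-pos and 27, 16.9 and 26 in GB-neg. IL-25+ libraries were all below the IL-25- libraries in the intestine and all above them in the gallbladder. On the log2 scale the gate difference was -2.02 ± 0.40 (adjusted p = 0.00218) in the intestine (or -2.65 without SI-pos 1) and 3.22 ± 0.42 (adjusted p = 9.78e-05) in the gallbladder. The interaction was 5.24 ± 0.57 (adjusted p = 0.000142), or 5.87 without SI-pos 1.

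Sema3c, a secreted neuropilin ligand (chromosome 5, 17574281 to 17730268, + strand), was lower in IL-25+ cells of both tissues. It measured 3.32, 2.41 and 3.16 CPM in SI-pos 1 to 3, 9.17, 7.17 and 11 in SI-neg, 15.2, 45.2 and 45 in GB-pos and 204, 160.1 and 240.2 in GB-neg. No groups overlapped: GB-neg was highest, then GB-pos, SI-neg and SI-pos. The log2 fold change between gates was -1.62 ± 0.37 (adjusted p = 0.00553) in the small intestine and -2.52 ± 0.37 (adjusted p = 0.000244) in the gallbladder. Between tissues it was 3.57 ± 0.39 (adjusted p = 3.84e-05) in IL-25+ and 4.47 ± 0.40 (adjusted p = 8.73e-06) in IL-25- cells. Sema4d, the ligand of Plxnb1, was lower in the small intestine (-1.83 ± 0.43, adjusted p = 0.00693) and in the gallbladder (-1.36 ± 0.42, adjusted p = 0.0298). The gallbladder Sema4d call did not hold without any 1 of GB-pos 3, GB-neg 1 and GB-neg 2 (adjusted p 0.071 to 0.0957, 0.00421 to 0.115 over its 22 alternatives), in a fit of the compared groups alone, without GB-neg 1 and SI-neg 3 together or without GB-pos 2 and GB-neg 2 together.

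Sema3e and Sema6a were called between the tissues and not between the gates, although the intestinal gates did not overlap for either. Sema3e, a secreted ligand of Plxnd1 (chromosome 5, 14025276 to 14256689, + strand), measured 0.226, 0.12 and 0.162 CPM in SI-pos 1 to 3, 0.0297, 0 and 0.102 in SI-neg, 10.2, 3.79 and 14.4 in GB-pos and 7.96, 2.75 and 13.9 in GB-neg. All gallbladder libraries were above all intestinal ones, with log2 fold changes of 5.77 ± 1.01 (adjusted p = 0.00126) in IL-25+ and 7.36 ± 1.11 (adjusted p = 0.000409) in IL-25- cells. The latter was 6.76 without GB-neg 3, and without SI-neg 3 the counts in IL-25- cells differed 510.2-fold (95% counting interval 91.4 to 20169.5, 1 count left in SI-neg). Sema6a, a transmembrane ligand of plexin-A receptors, measured 19.8, 35 and 13.9 CPM in SI-pos 1 to 3, 42.5, 102 and 77.4 in SI-neg, 2.93, 6.83 and 0.592 in GB-pos and 6.34, 7.71 and 0.909 in GB-neg. The gallbladder libraries were lower than the intestinal ones in each gate, at -3.89 ± 0.90 (adjusted p = 0.00862) in IL-25- and -2.74 ± 0.86 (adjusted p = 0.0383) in IL-25+ cells. The IL-25+ value was -3.67 without GB-pos 2, and its call did not hold without any 1 of SI-pos 1 to 3, SI-neg 3, GB-pos 1 and GB-pos 3 (adjusted p 0.0555 to 0.126, 0.00375 to 0.126 over its 22 alternatives), with no filter on low counts or without GB-neg 1 and SI-neg 3 together.

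The other semaphorins had lower levels or less stable calls. Sema3a, the classical repellent ligand of Nrp1, was at 0 counts in all SI-pos libraries and had 5.26, 15.6 and 12.9 CPM in GB-pos 1 to 3, at least 278-fold higher with 3 counts over the SI-pos group as the floor. Against GB-neg, at 0.632, 0.0295 and 0 CPM, its log2 fold change was 5.57 ± 1.5 (adjusted p = 0.018). Without GB-neg 1, GB-pos exceeded it 709-fold (95% counting interval 127 to 28016, 1 count left in GB-neg). That call did not hold without any 1 of GB-pos 2 and GB-neg 2 (adjusted p 0.0509 to 0.053, 0.000184 to 0.121 over its 22 alternatives) or without GB-pos 2 and GB-neg 2 together. Sema6c measured 15.7, 9.95 and 28.2 CPM in SI-pos 1 to 3, 1.13, 2.24 and 0.279 in SI-neg, 53.3, 50.6 and 45.7 in GB-pos and 3.83, 0 and 0.227 in GB-neg, higher in IL-25+ cells of the small intestine (3.89 ± 1.31, adjusted p = 0.0486), or 4.68 without SI-neg 2, and of the gallbladder (5.15 ± 1.37, adjusted p = 0.0182), or 8.75 without GB-neg 1. The intestinal Sema6c call did not hold without any 1 of SI-pos 1 to 3, SI-neg 1 to 3 and GB-pos 1 to 3 (adjusted p 0.0685 to 0.141, 0.00212 to 0.141 over its 22 alternatives), with RLE size factors, with no filter on low counts or with the replicate number as a block. The gallbladder one did not hold without GB-neg 3 (adjusted p 0.0513, 6.14e-05 to 0.0646 over its 22 alternatives) or with no filter on low counts. Sema4b had no call in any comparison, at 169.7, 210.4 and 199 CPM in SI-pos 1 to 3, 114, 208 and 135 in SI-neg, 161, 201 and 219.6 in GB-pos and 228, 155 and 105 in GB-neg, all groups overlapping; its largest gate difference was 0.34 ± 0.28 (adjusted p = 0.396), in the small intestine.

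**Figure D3:**
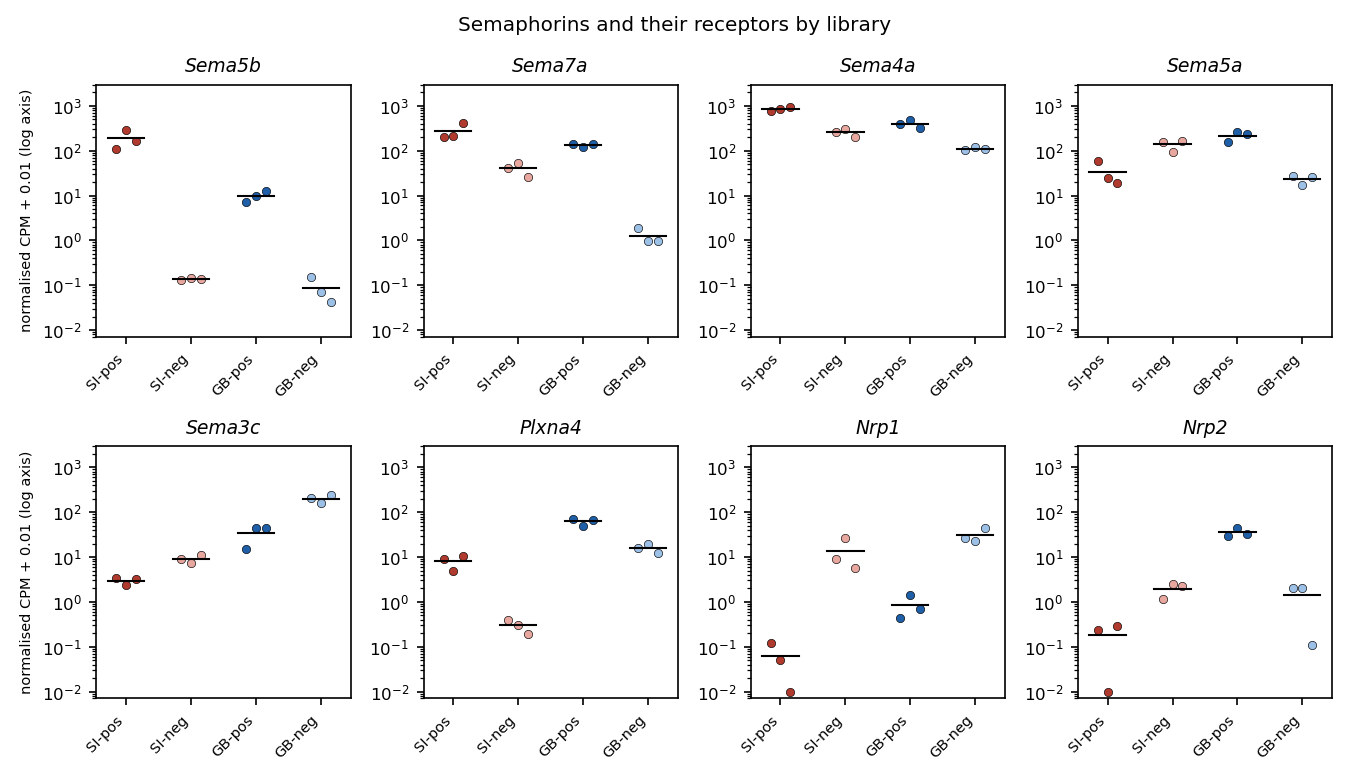
Normalised CPM + 0.01 on a log axis for 5 semaphorins and 3 of their receptors, 1 point per library and a line at each group mean. Sema5b is at 0.0325 to 0.14 CPM in the 6 IL-25- libraries, and Sema5a and Nrp2 change the order of the gates between the tissues.

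Of the semaphorin receptors, 8 of 9 plexins and both neuropilins were tested. Nrp1, co-receptor of the secreted semaphorins and of VEGF (chromosome 8, 128358604 to 128503363, + strand), was low in IL-25+ cells of both tissues. It measured 0.113, 0.0401 and 0 CPM in SI-pos 1 to 3, 8.93, 26.9 and 5.66 in SI-neg, 0.436, 1.41 and 0.673 in GB-pos and 25.9, 22.8 and 44.2 in GB-neg. The gates did not overlap in either tissue, and intestinal IL-25+ cells held 4 counts in all. Between gates the log2 fold change was -7.95 ± 0.97 (adjusted p = 5.76e-05) in the small intestine and -5.21 ± 0.78 (adjusted p = 0.000308) in the gallbladder. The first was -7.03 without SI-neg 2, the second -5.81 without GB-pos 2. Without SI-pos 1, SI-neg exceeded SI-pos 639.6-fold (95% counting interval 115 to 25280.0, 1 count left in SI-pos). Marker sums of several cell types were also lower in SI-pos than in SI-neg. Enterocyte markers summed to 15303 to 24576 CPM in SI-neg and 4291 to 6533 in SI-pos, goblet markers to 4328 to 58472 and 121 to 524, Paneth markers to 936 to 6184 and 31.5 to 144, and enteroendocrine markers to 7058 to 16248 and 200.2 to 428. Each of these 4 sums was, like Nrp1, highest in SI-neg 2. In the gallbladder the epithelial markers of that organ summed to 6868 to 7543 CPM in GB-neg and 730.0 to 825.8 in GB-pos, and goblet markers to 545 to 769.8 and 66.0 to 122.6. Within GB-neg the sum of gallbladder epithelial markers was, like Nrp1, highest in GB-neg 3, while the goblet sum was lowest there. That goblet sum was mostly Fcgbp, at means of 529 CPM in GB-neg and 59.8 in GB-pos. Of the 7 goblet markers 3 were called lower and 1 higher in GB-pos, and Spdef had 15.1 CPM there against 1.01 in GB-neg. The part of these cell types in the lower Nrp1 values was not tested.

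Nrp2, the second neuropilin (chromosome 1, 62703285 to 62818695, + strand), went the other way in the gallbladder. Its levels were 0.226, 0 and 0.284 CPM in SI-pos 1 to 3, 1.16, 2.5 and 2.26 in SI-neg, 29.7, 44.8 and 32.7 in GB-pos and 2.06, 1.98 and 0.0974 in GB-neg. The 3 GB-pos libraries, at 29.7 CPM or more, stood above the other 9, at 2.5 CPM or less, and SI-pos was below SI-neg without overlap. The gates differed by -3.51 ± 1.00 (adjusted p = 0.0193) in the small intestine and 4.68 ± 0.96 (adjusted p = 0.00289) in the gallbladder, with an interaction of 8.19 ± 1.38 (adjusted p = 0.00239). The intestinal call did not hold without SI-pos 2 (adjusted p 0.0562, 0.000349 to 0.0562 over its 22 alternatives) or in a fit of the compared groups alone. The gallbladder difference was called in each of the 22 alternatives.

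Plxna4, a receptor for class 6 semaphorins and, with Nrp1, for Sema3a (chromosome 6, 32144268 to 32588192, - strand), was higher in IL-25+ cells of both tissues and in the gallbladder over the intestine. It measured 8.9, 4.77 and 10.5 CPM in SI-pos 1 to 3, 0.386, 0.3 and 0.178 in SI-neg, 69.6, 49.8 and 67 in GB-pos and 16.3, 19.2 and 12.3 in GB-neg. No groups overlapped. The gate difference was 4.80 ± 0.44 (adjusted p = 5.27e-06) in the small intestine and 1.96 ± 0.36 (adjusted p = 0.00144) in the gallbladder, where IL-25- cells already had 12.3 to 19.2 CPM, and the interaction was -2.84 ± 0.54 (adjusted p = 0.00487). Between tissues the difference was 2.94 ± 0.38 (adjusted p = 0.000133) in IL-25+ and 5.78 ± 0.45 (adjusted p = 3.87e-06) in IL-25- cells. Reads carry no strand, and 110 bases of Plxna4 exon are shared with the antisense gene Plxna4os3.

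Plxnb2, a receptor for class 4 semaphorins and the most abundant guidance receptor here per kilobase, measured 322, 390.0 and 392 CPM in SI-pos 1 to 3, 253, 350.4 and 232 in SI-neg, 431, 403 and 282 in GB-pos and 585, 563 and 643 in GB-neg, and was lower in gallbladder IL-25+ cells (-0.68 ± 0.20, adjusted p = 0.0251). That call did not hold without any 1 of GB-pos 3 and GB-neg 3 (adjusted p 0.0604 to 0.0954, 0.00774 to 0.0954 over its 22 alternatives), in a fit of the compared groups alone or without GB-pos 2 and GB-neg 2 together. Plxna1, a receptor of class 3 and class 6 semaphorins, was lower in IL-25+ cells of the small intestine (-1.28 ± 0.34, adjusted p = 0.0134) and of the gallbladder (-1.59 ± 0.34, adjusted p = 0.00381); 970 bases of its exons overlap an antisense gene. The intestinal Plxna1 call did not hold without SI-pos 2 (adjusted p 0.0575, 0.000659 to 0.0575 over its 22 alternatives).

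Of the ephrins 8 of 8 were tested, and 1 was higher and 1 lower in each tissue. This is 25% called, near the share of all genes called (27.2% in the small intestine, 26.8% in the gallbladder). Efnb2, a transmembrane ephrin and partner of Ephb4 (chromosome 8, 8617434 to 8661242, - strand), measured 284, 388 and 342 CPM in SI-pos 1 to 3, 94.9, 155 and 114 in SI-neg, 255, 166 and 155 in GB-pos and 294, 266 and 189 in GB-neg. It was higher in intestinal IL-25+ cells without overlap and overlapped between the gallbladder gates. The fitted log2 difference was 1.48 ± 0.26 (adjusted p = 0.000903) in the small intestine and -0.38 ± 0.25 (adjusted p = 0.288) in the gallbladder, with an interaction of -1.86 ± 0.36 (adjusted p = 0.00545). Gallbladder IL-25- cells were higher than intestinal ones (1.04 ± 0.25, adjusted p = 0.00951), but not without GB-neg 1 and SI-neg 3 together (adjusted p 0.000246 to 0.0718 over its 22 alternatives).

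Efna1, a lipid-anchored ephrin and ligand of Epha2 (chromosome 3, 89271733 to 89281142, - strand), measured 11.3, 18.7 and 13 CPM in SI-pos 1 to 3, 7.92, 15.7 and 8.18 in SI-neg, 0.958, 1.56 and 1.99 in GB-pos and 13.1, 6.62 and 12.4 in GB-neg. Only the GB-pos libraries stood apart, each at 1.99 CPM or less and below the other 9. The log2 fold change was -2.83 ± 0.51 (adjusted p = 0.00112) in the gallbladder and 0.44 ± 0.47 (adjusted p = 0.527) in the small intestine, and gallbladder IL-25+ cells were lower than intestinal ones (-3.25 ± 0.52, adjusted p = 0.000627). The interaction of -3.27 ± 0.69 (adjusted p = 0.00925) did not hold without GB-neg 1 and SI-neg 3 together (adjusted p 0.000139 to 0.0512 over its 21 alternatives). Efnb1 was higher in gallbladder IL-25+ cells, at 102, 124 and 97.6 CPM against 65.6, 58.3 and 35.6 (1.02 ± 0.22, adjusted p = 0.00441).

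Of the Eph receptors 10 of 14 were tested; 1 was higher and 2 lower in intestinal IL-25+ cells, 3 higher and 3 lower in gallbladder ones. That is 30% called in the intestine, near the 27.2% of all genes, and 60% in the gallbladder against 26.8%. Epha4, which binds both ephrin classes (chromosome 1, 77367185 to 77515088, - strand), measured 73.6, 82 and 115 CPM in SI-pos 1 to 3, 2.64, 2.3 and 3 in SI-neg, 42.4, 67.8 and 46.2 in GB-pos and 48.4, 53.4 and 25.1 in GB-neg. The SI-neg libraries alone were low, at 2.3 to 3 CPM, and all other libraries were at 25.1 CPM or more. The log2 fold change between gates was 5.09 ± 0.37 (adjusted p = 6.84e-07) in the small intestine and 0.30 ± 0.31 (adjusted p = 0.501) in the gallbladder, the gallbladder gates overlapping. The interaction was -4.79 ± 0.46 (adjusted p = 5.80e-05), and IL-25- cells of the gallbladder were above those of the intestine by 4.0 ± 0.35 (adjusted p = 7.77e-06). These 3 calls held in each alternative.

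Epha7, a receptor for A-type ephrins (chromosome 4, 28813131 to 28967499, + strand), was high in GB-pos alone. It measured 0.377, 0.0802 and 0.689 CPM in SI-pos 1 to 3, 2.28, 1.87 and 4.42 in SI-neg, 42.8, 35.4 and 27.7 in GB-pos and 1.57, 2.16 and 1.82 in GB-neg. SI-pos was below SI-neg and GB-pos above GB-neg, both without overlap. Its gate difference was -2.89 ± 0.62 (adjusted p = 0.004) in the small intestine and 4.25 ± 0.63 (adjusted p = 0.000274) in the gallbladder, with an interaction of 7.15 ± 0.88 (adjusted p = 0.00029). Between IL-25+ cells the gallbladder was higher by 6.52 ± 0.71 (adjusted p = 3.84e-05). Without SI-pos 3 the intestinal value was -3.61, the interaction 7.86 and the tissue difference 7.24.

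Ephb4, the receptor of Efnb2 (chromosome 5, 137350109 to 137378669, + strand), and Ephb6, an Eph receptor whose kinase domain is inactive (chromosome 6, 41605482 to 41620509, + strand), were likewise highest in GB-pos. Ephb4 measured 41, 46.4 and 33.8 CPM in SI-pos 1 to 3, 90.1, 44.1 and 73.1 in SI-neg, 148, 101 and 95 in GB-pos and 50.7, 42.2 and 39.9 in GB-neg. Ephb6 measured 0.0377, 0.12 and 0.0405 CPM in SI-pos 1 to 3, 0.0297, 0.0667 and 0.0254 in SI-neg, 16.4, 12.8 and 17.4 in GB-pos and 2.85, 3.63 and 0.552 in GB-neg. In both, each GB-pos library was above every other library. Ephb4 was higher in gallbladder IL-25+ cells by 1.37 ± 0.28 (adjusted p = 0.00251), and its interaction was 2.15 ± 0.39 (adjusted p = 0.00384); Ephb4 shares 33 bases of exon with Zan on the other strand. Ephb6 was higher by 2.72 ± 0.74 (adjusted p = 0.0155), and it was higher in the gallbladder than in the intestine in both gates, by 7.80 ± 0.98 (adjusted p = 0.000107) in IL-25+ cells and 5.77 ± 0.92 (adjusted p = 0.000621) in IL-25- cells. Without SI-pos 2 its IL-25+ counts differed 404-fold (95% counting interval 112 to 3339.6, 2 counts left in SI-pos).

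Epha2 and Ephb3 were lower in gallbladder IL-25+ cells. Epha2, the epithelial receptor of Efna1 (chromosome 4, 141301240 to 141329384, + strand), measured 59.8, 46.6 and 132 CPM in SI-pos 1 to 3, 46.2, 69.9 and 33.9 in SI-neg, 7.52, 15.8 and 22.4 in GB-pos and 126, 100.4 and 97.6 in GB-neg. Ephb3, a receptor known from intestinal crypts (chromosome 16, 21204755 to 21223305, + strand), measured 42.7, 45.3 and 40.3 CPM in SI-pos 1 to 3, 83, 53 and 54.4 in SI-neg, 15, 4.27 and 21.9 in GB-pos and 142, 65.8 and 85.6 in GB-neg. For both genes the GB-pos libraries were below all others, and the 2 intestinal gates overlapped for Epha2 but not for Ephb3. The gallbladder log2 fold change was -2.83 ± 0.46 (adjusted p = 0.000568) for Epha2 and -2.83 ± 0.48 (adjusted p = 0.000803) for Ephb3; in the small intestine it was 0.67 ± 0.43 (adjusted p = 0.277) and -0.57 ± 0.45 (adjusted p = 0.379). The interaction was -3.49 ± 0.62 (adjusted p = 0.00356) for Epha2, which held in each alternative. That of Ephb3, -2.26 ± 0.65 (adjusted p = 0.0446), did not hold without any 1 of SI-pos 1 to 3, SI-neg 1 to 3, GB-pos 1, GB-neg 1 and GB-neg 3 (adjusted p 0.0548 to 0.0949, 0.0174 to 0.158 over its 21 alternatives), with RLE size factors, with no filter on low counts or without GB-neg 1 and SI-neg 3 together.

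Epha1, the receptor first found in this family (chromosome 6, 42358487 to 42373268, - strand), was lower in IL-25+ cells of both tissues and in the gallbladder than in the intestine. It measured 12.6, 20.8 and 9.2 CPM in SI-pos 1 to 3, 60.4, 64.6 and 76.5 in SI-neg, 5.43, 2.6 and 6.78 in GB-pos and 13.6, 12.6 and 9.48 in GB-neg. The SI-neg libraries were highest at 60.4 to 76.5 CPM and GB-pos lowest, no gates overlapping. On the log2 scale the gate difference was -2.24 ± 0.39 (adjusted p = 0.000997) in the small intestine and -1.27 ± 0.39 (adjusted p = 0.0271) in the gallbladder, but the gallbladder call did not hold without any 1 of GB-pos 1, GB-pos 2, GB-neg 1 and GB-neg 2 (adjusted p 0.053 to 0.0786, 0.012 to 0.144 over its 22 alternatives), with limma-voom, with the replicate number as a block, in a fit of the compared groups alone, without GB-neg 1 and SI-neg 3 together or without GB-pos 2 and GB-neg 2 together. Epha1 shares 236 bases of exon with Zyx on the other strand, whose reads cannot be separated from its own. Ephb2, the other crypt EphB receptor (chromosome 4, 136647539 to 136835988, - strand), had no called gate difference in either tissue, at 0.12 (adjusted p = 0.782) and 0.38 (adjusted p = 0.321). It measured 102, 71.9 and 103 CPM in SI-pos 1 to 3, 109.8, 57 and 87.5 in SI-neg, 36, 37.7 and 30.8 in GB-pos and 30.3, 30.0 and 19.8 in GB-neg. All gallbladder libraries were below all intestinal ones, at -1.40 ± 0.27 (adjusted p = 0.00253) in IL-25+ and -1.67 ± 0.28 (adjusted p = 0.00081) in IL-25- cells.

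**Figure D4:**
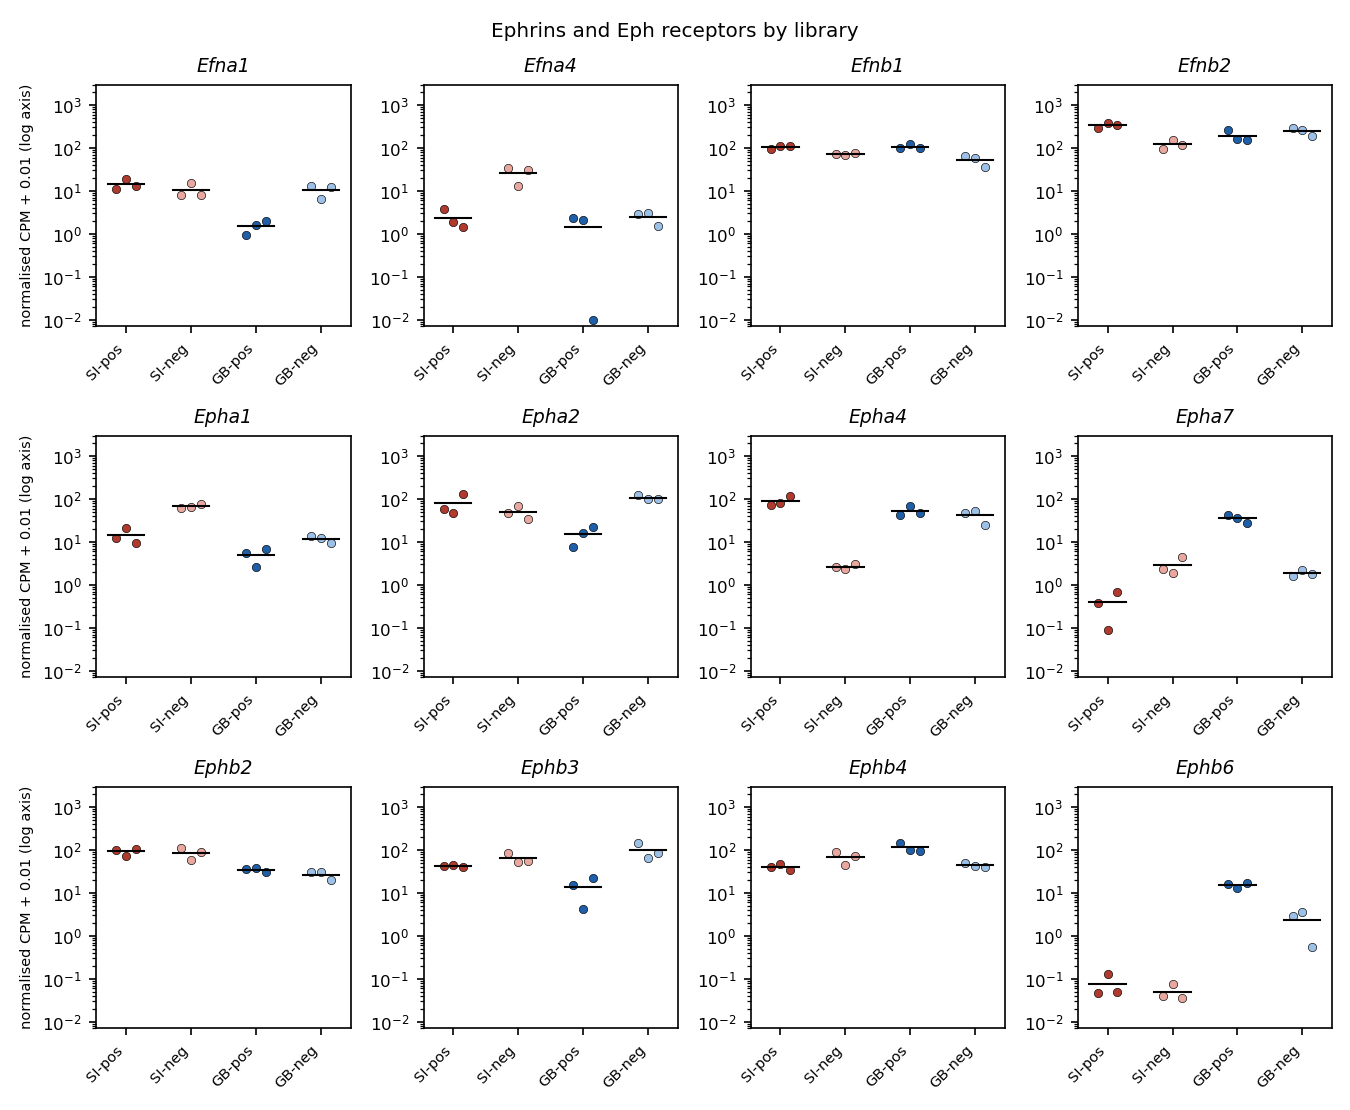
Normalised CPM + 0.01 on a log axis for 4 ephrins and 8 Eph receptors, 1 point per library and a line at each group mean. Epha4 is low only in SI-neg, Epha7 and Ephb6 are highest in GB-pos, and Efna1, Epha2 and Ephb3 are lowest in GB-pos.

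In the gallbladder the ligand Slit2 was lower in IL-25+ cells, and 2 Robo receptors were higher. Slit2 (chromosome 5, 47983138 to 48307733, + strand) measured 0.264, 0.281 and 0.892 CPM in SI-pos 1 to 3, 6.38, 1.7 and 4.82 in SI-neg, 4.04, 3.23 and 0.673 in GB-pos and 43.1, 36 and 34.3 in GB-neg. GB-neg was the highest group, and the gates did not overlap in either tissue. The log2 fold change between gates was -3.16 ± 0.73 (adjusted p = 0.00639) in the small intestine (or -3.97 without SI-pos 3) and -3.84 ± 0.73 (adjusted p = 0.00164) in the gallbladder, and IL-25- cells of the gallbladder were higher than those of the intestine by 3.13 ± 0.70 (adjusted p = 0.00588). Slit1 (chromosome 19, 41600257 to 41743665, - strand) had 2 counts over the 3 SI-pos libraries and 0.0297, 0.434 and 5.18 CPM in SI-neg, 20.1, 7.39 and 1.94 in GB-pos and 53.5, 55.7 and 37.2 in GB-neg. Its gallbladder gates did not overlap, but the difference was not called (-2.32 ± 1.22, adjusted p = 0.188). The intestinal gates overlapped; SI-neg exceeded SI-pos 80.5 (95% interval 22 to 669)-fold, counting error only. SI-neg 3 held 204 of the 218 SI-neg counts, and without it SI-neg exceeded SI-pos 8.37-fold (95% counting interval 1.92 to 75.8, 2 counts left in SI-pos). The call did not hold without any 1 of SI-pos 1 to 3, SI-neg 3 and GB-pos 2 (adjusted p 0.0548 to 0.197, 0.00199 to 0.197 over its 21 alternatives), with limma-voom, with no filter on low counts, with the replicate number as a block, without GB-neg 1 and SI-neg 3 together or without GB-pos 2 and GB-neg 2 together.

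Robo1 (chromosome 16, 72308306 to 73046095, + strand) and Robo2 (chromosome 16, 73891839 to 74411825, - strand) are neighbours with 845743 bases and no protein-coding gene between them, and both were high only in gallbladder IL-25+ cells. Robo2 measured 0.0377, 0 and 0.973 CPM in SI-pos 1 to 3, 0.415, 0.367 and 0 in SI-neg, 124, 149 and 115 in GB-pos and 1.08, 0.266 and 0.13 in GB-neg. Robo1, which was added after its values were seen, measured 0, 0 and 0.527 CPM in SI-pos 1 to 3, 0.119, 0.2 and 0.533 in SI-neg, 93.4, 80.2 and 42.6 in GB-pos and 1.66, 0 and 0.0325 in GB-neg. In both genes the 3 GB-pos libraries, at 42.6 CPM or more, stood above the other 9, at 1.66 CPM or less, and the highest of those 9 was GB-neg 1. That library had the highest tuft marker sum of GB-neg (219.8 CPM against 55.8 and 91.4). It also had the highest enterocyte marker sum of GB-neg (917 CPM against 31.8 and 21.2) and the most reads. Whether any of these bears on its Robo values was not tested. The gallbladder log2 fold change was 7.92 ± 1.34 (adjusted p = 0.00155) for Robo2 and 6.88 ± 1.60 (adjusted p = 0.00953) for Robo1. For Robo2 it was 9.29 without GB-neg 1, and for Robo1 the counts without that library differed 4568-fold (95% counting interval 819.5 to 180433, 1 count left in GB-neg). In the small intestine the log2 fold change was 0.39 ± 1.33 (adjusted p = 0.862) and -0.73 ± 1.65 (adjusted p = 0.785). Both genes were higher in gallbladder than in intestinal IL-25+ cells, by 8.58 ± 1.41 (adjusted p = 0.00166) for Robo2 and 8.67 ± 1.80 (adjusted p = 0.00599) for Robo1. Without SI-pos 3 the counts of Robo2 differed 6542-fold (95% counting interval 1174 to 258409, 1 count left in SI-pos) between the tissues, and those of Robo1 at least 1211-fold, SI-pos then holding 0 counts and the floor being 3 over the group. The fitted Robo1 value was 8.08 without SI-pos 1. The interaction was 7.53 ± 1.79 (adjusted p = 0.0257) for Robo2 and 7.61 ± 2.17 (adjusted p = 0.0549) for Robo1, which was not called. That of Robo2 is not sized without SI-pos 3, where SI-pos holds 1 count. It was 6.94 without SI-pos 2, 8.15 without SI-neg 3 and 8.90 without GB-neg 1 and did not hold without any 1 of SI-pos 1, SI-neg 1, SI-neg 2, GB-pos 1, GB-pos 2 and GB-neg 2 (adjusted p 0.0506 to 0.108, 0.00229 to 0.108 over its 21 alternatives), with no filter on low counts, with the replicate number as a block or without GB-pos 2 and GB-neg 2 together.

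The upstream windows of these neighbours are shown because the genes rose together in GB-pos. They are the 250 bases before a RefSeq start (GRCm38.p6) at chr16:72662899-72663148 (+), the single Robo1 window, which lies inside the annotated gene, and at chr16:74411826-74412075 (-), which ends at the Robo2 start of the annotation; capitals again mark CG dinucleotides.
Robo1: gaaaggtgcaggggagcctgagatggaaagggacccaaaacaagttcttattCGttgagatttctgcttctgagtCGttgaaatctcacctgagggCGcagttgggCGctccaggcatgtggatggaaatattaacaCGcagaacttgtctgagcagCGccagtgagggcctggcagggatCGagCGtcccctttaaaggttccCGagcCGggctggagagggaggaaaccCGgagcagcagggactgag
Robo2: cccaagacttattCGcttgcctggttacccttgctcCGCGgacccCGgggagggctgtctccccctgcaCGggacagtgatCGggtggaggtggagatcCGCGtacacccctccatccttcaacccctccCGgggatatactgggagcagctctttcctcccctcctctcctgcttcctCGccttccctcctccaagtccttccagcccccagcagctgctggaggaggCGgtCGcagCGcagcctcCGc
They held 11 and 14 CG dinucleotides and 56% and 65.6% G or C, and neither held ATGCAAA. The other 2 of the 3 Robo2 windows held 8 and 4 CG dinucleotides and 53.2% and 44.8% G or C.

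**Figure D5:**
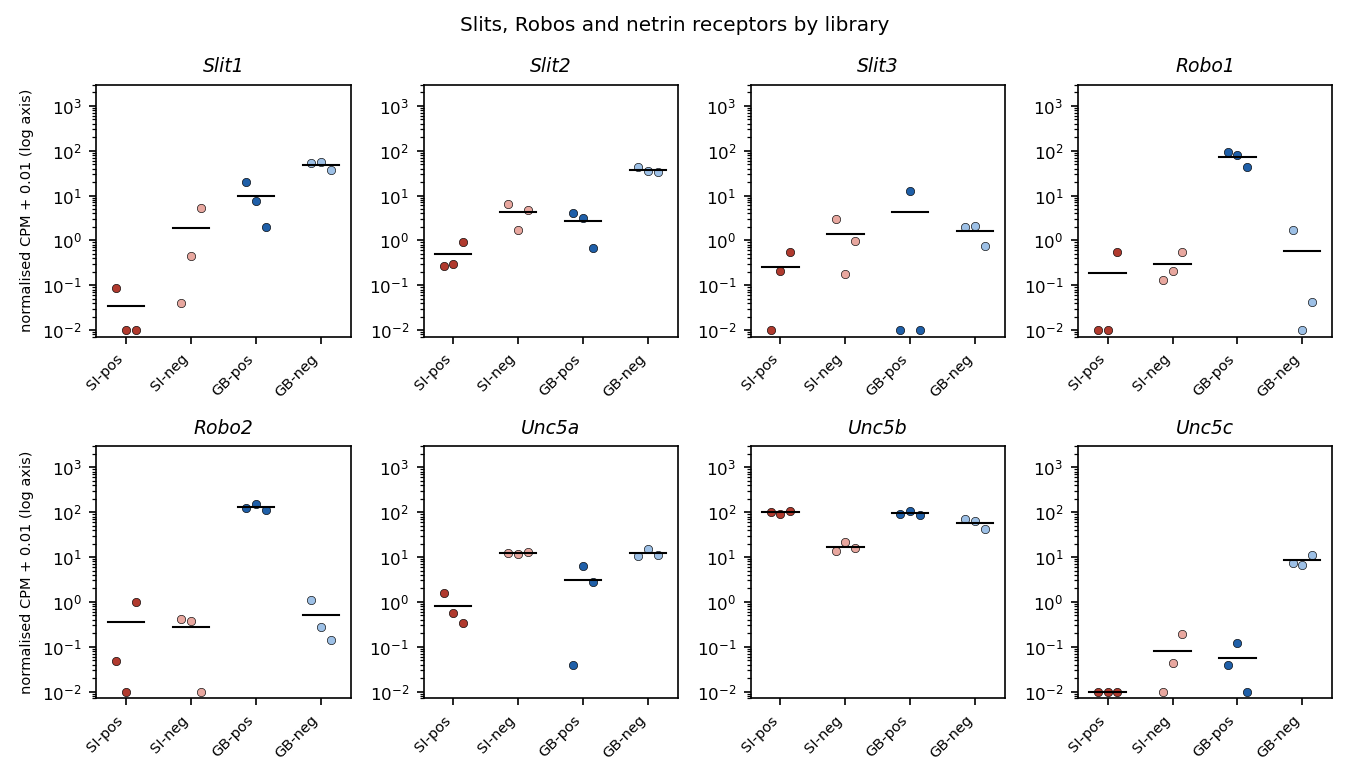
Normalised CPM + 0.01 on a log axis for Slit1 to Slit3, Robo1, Robo2 and the netrin receptors Unc5a to Unc5c, 1 point per library and a line at each group mean. Robo1 and Robo2 are at 42.6 CPM or more in GB-pos and at 1.66 CPM or less elsewhere, while Slit2 is highest in GB-neg, at 34.3 to 43.1 CPM.

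Of the netrin system, Ntn1 and Ntn4 and 3 of 4 Unc5 receptors were tested. Unc5b, a netrin receptor known from blood vessels (chromosome 10, 60762593 to 60831581, - strand), measured 99.9, 89.9 and 106 CPM in SI-pos 1 to 3, 13.7, 21.1 and 16.2 in SI-neg, 92.6, 108 and 86.7 in GB-pos and 70.0, 63.5 and 42.1 in GB-neg. SI-neg was the low group, and the gates did not overlap in either tissue. Between gates the log2 fold change was 2.54 ± 0.25 (adjusted p = 8.94e-06) in the small intestine and 0.71 ± 0.23 (adjusted p = 0.039) in the gallbladder, with an interaction of -1.83 ± 0.33 (adjusted p = 0.00404), and IL-25- cells were higher in the gallbladder by 1.78 ± 0.24 (adjusted p = 0.000194). The gallbladder gate call did not hold without any 1 of SI-pos 1 to 3, SI-neg 3, GB-pos 1 to 3, GB-neg 2 and GB-neg 3 (adjusted p 0.0524 to 0.126, 0.0182 to 0.147 over its 22 alternatives), with no filter on low counts, without GB-neg 1 and SI-neg 3 together or without GB-pos 2 and GB-neg 2 together. Unc5c had 7.21, 6.79 and 11.3 CPM in GB-neg 1 to 3 and at most 0.178 CPM in any other library, and was lower in gallbladder IL-25+ cells (-7.47 ± 1.56, adjusted p = 0.00445). Without GB-pos 2, GB-neg exceeded GB-pos 576-fold (95% counting interval 103 to 22759, 1 count left in GB-pos). Unc5a was lower in intestinal IL-25+ cells (-3.92 ± 1.12, adjusted p = 0.02), at 1.55, 0.562 and 0.324 CPM in SI-pos against 12.6, 11.4 and 13 in SI-neg, or -4.79 without SI-pos 1. That call did not hold without any 1 of SI-pos 2 and SI-pos 3 (adjusted p 0.0779 to 0.0798, 0.000276 to 0.0798 over its 22 alternatives). The ligand Ntn4 had no gate call, and Ntn1 had 812 counts in all and no call in any comparison.

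The tissues also differed within each gate. In IL-25+ cells 15 of the 56 genes were higher and 14 lower in the gallbladder, 51.8% against 23.7% of all genes tested (10.5% higher, 13.1% lower). In IL-25- cells 17 were higher and 8 lower, 44.6% against 24.6% (13% higher, 11.7% lower). These comparisons use the same libraries as the gate comparisons and are not further evidence for them. Sema3c, Sema3e, Plxna4, Ephb6, Slit1 and Slit2 were higher in the gallbladder in both gates, and Sema4a, Sema6a, Sema6d, Sema7a, Epha1 and Ephb2 were lower in both; several of the Sema6d, Sema7a and Slit calls ended under alternatives, among them Sema7a in IL-25+ cells (-1.06 ± 0.34, adjusted p = 0.0377), which did not hold without any 1 of SI-pos 3, SI-neg 1 and GB-pos 1 to 3 (adjusted p 0.0503 to 0.206, 0.0165 to 0.206 over its 22 alternatives), with RLE size factors, with the replicate number as a block or without GB-pos 2 and GB-neg 2 together. Leaving out SI-pos 2 took the number lower in IL-25+ cells from 14 to 8. Over all genes tested, that number went from 2185 of 16636 to 1583 of 17740.

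Among the remaining genes with a gate call, Plxna3, a receptor for secreted semaphorins, was lower in gallbladder IL-25+ cells in each alternative (0.465, 0.223 and 0.323 CPM in GB-pos against 11, 4.7 and 2.05 in GB-neg), at -4.11 ± 0.81 (adjusted p = 0.00221), or -3.33 without GB-neg 1. The gate calls of Sema3b (higher in both tissues), Sema6b and Plxnb1 (higher in the small intestine), Sema4c and Efna4 (lower in the small intestine) and Sema3d and Sema3f (lower in the gallbladder) each ended when at least 1 library was left out. Like Sema3e, Sema6a and Ephb2, the genes Efna2, Efna5, Ntn4, Sema6d and Plxna2 were called between the tissues and not between the gates.

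Besides Sema4b, the genes tested without a call in any comparison were Plxnc1, Plxnd1, Efna3, Efnb3, Epha3, Epha5, Slit3 and Ntn1, which reached at most 4.56 CPM in their highest group. Several were carried by single libraries: Slit3 had 12.5 CPM in GB-pos 2 and 0 in GB-pos 1 and 3.

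Other genes of these pathways were read from a list of 80 co-receptors, further ligands and intracellular effectors, of which 75 were tested. In the small intestine 12 were higher and 14 lower in IL-25+ cells (16% and 18.7%, against 14.5% and 12.8% of all genes); in the gallbladder 13 were higher and 16 lower (17.3% and 21.3%, against 12.4% and 14.4%). The interaction was called for 5 genes in each direction (6.67% each, against 3.63% and 5.6%). The number lower in the small intestine fell to 8 without SI-pos 2 and to 9 without SI-pos 3, SI-neg 1 or SI-neg 3. Over all genes tested, the number lower there fell from 2124 to 1276 without SI-pos 2 and to 1259 without SI-pos 3. It fell to 1541 without SI-neg 1 and to 1503 without SI-neg 3.

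L1cam, an adhesion protein that joins Nrp1 in the Sema3a receptor, measured 1024, 978 and 1164 CPM in SI-pos 1 to 3, 122, 97.5 and 164 in SI-neg, 695, 803 and 748 in GB-pos and 32.1, 15.4 and 20.1 in GB-neg. IL-25+ libraries were above IL-25- libraries throughout, by 3.04 ± 0.27 (adjusted p = 4.59e-06) in the small intestine and 5.05 ± 0.30 (adjusted p = 1.81e-07) in the gallbladder, with an interaction of 2.01 ± 0.36 (adjusted p = 0.00363). Dpysl2, a collapsin response mediator that carries semaphorin signals to microtubules, was higher by 5.04 ± 0.62 (adjusted p = 0.000157) in the small intestine (or 6.13 without SI-neg 2) and 7.14 ± 0.69 (adjusted p = 2.51e-05) in the gallbladder. Fes, a tyrosine kinase that acts below plexin-A receptors, was higher by 6.56 ± 0.65 (adjusted p = 1.95e-05) and 4.41 ± 0.59 (adjusted p = 0.000188), the latter being 5.14 without GB-neg 2.

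Dscam, a netrin receptor and neuronal adhesion molecule, had the distribution seen for Robo1 and Robo2, at 0, 0.0802 and 0.405 CPM in SI-pos 1 to 3, 0.089, 0.2 and 0.279 in SI-neg, 63, 56.8 and 62.7 in GB-pos and 0.337, 0.0591 and 0.065 in GB-neg. GB-pos alone was high; the log2 fold change was 8.44 ± 0.95 (adjusted p = 2.93e-05) in the gallbladder and -0.26 ± 0.91 (adjusted p = 0.869) in the small intestine, with an interaction of 8.69 ± 1.24 (adjusted p = 0.000789). The gallbladder value was 9.83 without GB-neg 1, and the interaction 8.09 without SI-pos 1 and 10.09 without GB-neg 1; without SI-pos 3 it is not sized, since SI-pos then holds 2 counts.

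Met, a receptor kinase that pairs with plexin-B receptors, was lower in IL-25+ cells of both tissues, at -2.48 ± 0.24 (adjusted p = 8.78e-06) in the small intestine and -1.83 ± 0.24 (adjusted p = 9.29e-05) in the gallbladder. Dock1, an activator of Rac below Dcc, was lower at -1.61 ± 0.22 (adjusted p = 0.000173) and -1.52 ± 0.22 (adjusted p = 0.000243), and Flrt3, a ligand of Unc5 receptors, at -2.17 ± 0.41 (adjusted p = 0.00198) and -3.25 ± 0.43 (adjusted p = 0.000144). Flrt3 had 1147, 972 and 2539 CPM in GB-neg 1 to 3 and at most 212 CPM in any other library. Yes1, a Src-family kinase, was lower in gallbladder IL-25+ cells (-3.94 ± 0.37, adjusted p = 7.25e-06), with 8.22, 2.93 and 6.97 CPM in GB-pos against 85.7, 104 and 88.9 in GB-neg, and its interaction was -2.90 ± 0.48 (adjusted p = 0.00215). Mical2, an enzyme that takes apart actin filaments, was lower there (-2.08 ± 0.25, adjusted p = 4.71e-05). Its interaction of -1.40 ± 0.34 (adjusted p = 0.0191) did not hold without any 1 of SI-pos 2 and SI-neg 1 (adjusted p 0.0559 to 0.0592, 0.0143 to 0.0661 over its 21 alternatives) or without GB-neg 1 and SI-neg 3 together.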

How the data were processed

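RNA was sequenced from 12 libraries of sorted epithelial cells, 3 in each of 4 groups taken from the sample titles. The deposited values are unscaled counts of reads by Ensembl gene identifier; per the submitters' processing notes reads were aligned with STAR 2.7.2b to GRCm38, and DESeq2 1.26 is listed. The read counter, its strand setting and the annotation are not given in the sources used here, and per the labels' protocols the libraries were made with Nextera XT after cDNA amplification, which keeps no strand. Another 11 columns of the table match no sample and were not used. Symbols and positions came from GENCODE M21 (GRCm38), which matched 42548 of 43432 genes, and upstream sequences from RefSeq (GRCm38.p6).

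edgeR 4.0.16 (R 4.3.3) was run on the 16636 genes that passed filterByExpr (minimum count 10), as a robust quasi-likelihood fit of the 4 groups in all 12 libraries with TMM scaling and no covariate. Tests were two-sided with Benjamini-Hochberg adjustment over all genes tested and a threshold of 0.05; standard errors were derived from the fold change and the F statistic. The script was tested on simulated data with known changes, and not every changed gene was called. The recovery asked for in that test was lowered after its first run. A gene without a call may therefore still differ. Where a library has 0 counts, up to 3 are allowed for (0.0421 to 0.122 CPM by library); intervals and floors cover counting error only. Replicates were checked to be distinct (chi-square per degree of freedom at least 45.3).

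The members and the lists of partners and markers were chosen with earlier results of these data known. Genes given in full have a call and at least 5 CPM in a group, taking the 6 of lowest adjusted p per comparison and direction, and 20 CPM in all groups where there is no call; of the partners, the 3 of lowest adjusted p per direction and tissue. Robo1, Slit1, Sema6c and Plxnb2 fall outside this rule and were given with all their values after these were seen. The fit was repeated with DESeq2 1.42.0, with limma-voom and quality weights (limma 3.58.1), with RLE scaling, unfiltered or keeping genes at 5 CPM in 3 libraries, on the compared groups alone, blocked on replicate number, and without each library, each of 2 pairs of libraries, or the mitochondrial genes. Deviations of same-numbered libraries from their group means correlated at -0.05 to 0.16. Between the gallbladder gates these correlations were 0.02 to 0.16, against -0.18 to 0.10 for libraries of different number. The labels do not say whether same-numbered libraries share an animal, and the number was not used as a block in the fit reported.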

Additional observations from a re-analysis of the deposited data

Results flagged for a closer look

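For 15 guidance genes the difference between the gates itself differed between the tissues, by edgeR's interaction test over all 12 libraries (adjusted p under 0.05). Each value is the log2 fold change between gates in the gallbladder minus that in the small intestine, from 3 libraries per group. The 6 positive values were 8.19 for Nrp2, 7.53 for Robo2, 7.15 for Epha7, 5.24 for Sema5a, 3.92 for Sema7a and 2.15 for Ephb4. The 9 negative values were -4.79 for Epha4, -3.77 for Sema5b, -3.49 for Epha2, -3.27 for Efna1, -2.84 for Plxna4, -2.26 for Ephb3, -1.86 for Efnb2, -1.83 for Unc5b and -1.08 for Plxnb2. Of the 15 calls, 10 held in each of 21 alternatives; those of Sema5b, Robo2, Ephb3, Efna1 and Plxnb2 did not. The adjusted p of Plxnb2 ran from 0.00309 to 0.0955 over its alternatives, and its call ended without GB-neg 3, SI-pos 3, GB-pos 3, SI-neg 1, SI-pos 2 or SI-neg 3, each left out alone. Epha7, Nrp2 and Sema5a were called in opposite directions in the 2 tissues, and the gates did not overlap for these 3 genes in either one. The intestinal Nrp2 call did not hold without SI-pos 2 or in a fit of the compared groups alone.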

How the results depend on the processing

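No called difference of a guidance gene changed direction under the alternatives, which numbered 22 per comparison and 21 for the interaction. Calls that held in each alternative were 15 of 25 between gates in the small intestine, 21 of 30 in the gallbladder, 18 of 29 between tissues in IL-25+ cells, 17 of 25 in IL-25- cells and 10 of 15 interactions. Leaving out 1 library at a time gave 9 to 14 higher and 7 to 14 lower guidance genes in the small intestine (7 without SI-pos 2), 14 to 16 and 11 to 14 in the gallbladder, 13 to 16 and 8 to 15 between tissues in IL-25+ cells (8 without SI-pos 2, 9 without GB-pos 3), 13 to 18 and 7 to 9 in IL-25- cells, and 5 to 8 and 7 to 9 interactions. Without GB-pos 2 and GB-neg 2 together, 8 were lower in IL-25+ cells of the gallbladder than of the intestine, and without GB-neg 1 and SI-neg 3 together 5 interactions were negative; these fits have fewer samples.

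For partners and effectors, leaving out 1 library gave 10 to 14 higher and 8 to 15 lower in the small intestine, 11 to 13 and 13 to 18 in the gallbladder, 9 to 14 and 6 to 13 between tissues in IL-25+ cells, 11 to 18 and 5 to 10 in IL-25- cells, and 4 to 5 and 3 to 6 interactions. Without GB-neg 1 and SI-neg 3 together, 9 partners were higher in the gallbladder in IL-25- cells, and 8 interactions were positive and 3 negative. Over all genes tested, these numbers were 1485, 631 and 662, against 2160, 604 and 932 in the fit reported. Without GB-pos 2 and GB-neg 2 together, 5 partners were lower in IL-25- cells and 3 interactions were positive. Over all genes tested, these numbers were 1351 and 355, against 1939 and 604 in the fit reported. DESeq2 gave 9 positive interactions of partners and no filter on low counts 3. Over all genes tested, DESeq2 gave 1221 and no filter 566 (of 28133 genes), against 604 in the fit reported. The cause was not tested.

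With the replicate number as a block, 11 guidance genes were higher and 13 lower in the small intestine and 16 and 13 in the gallbladder. The labels do not say whether the numbers pair the libraries. RLE scaling moved the median log2 value over 16636 genes from -0.07 to -0.20 between the intestinal gates, from -0.09 to 0.02 between tissues in IL-25+ cells and from -0.11 to 0.06 for the interaction, where calls over all genes went from 604 positive and 932 negative to 779 and 743.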
